A study of Mus musculus with 9 samples.

Results

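Azurophil granule genes are described here across 3 kinds of transduced mouse bone marrow culture. The genes are Mpo, Elane, Prtn3, Ctsg and Prss57, which are 5 of the 55274 gene identifiers in the tables and were chosen by symbol alone. RNA-seq was available for 9 libraries, 3 each from cells carrying NRASG12D, NUP98-NSD1 or both (NUP98-NSD1+NRASG12D). NRASG12D is a RAS protein locked in its active state by an amino acid change, and NUP98-NSD1 is a leukemia fusion of a nucleoporin with a histone methyltransferase. All cultures started from bone marrow of C57BL6/J mice treated with 5-fluorouracil (150 mg/kg), taken 4 days afterwards and stimulated for 48 h with human IL-6, murine IL-3 and murine SCF. NUP98-NSD1 was carried by a retroviral MSCV vector with GFP and NRASG12D by one with BFP, so both were driven constitutively by the viral promoter, and transduced cells were sorted by these fluorochromes and expanded. No untransduced or empty-vector culture was analysed here, and no source states whether the replicates came from separate mice, so p-values measure only the spread between these samples. In the paper the NRASG12D cultures are described as mostly mast cells, so each comparison with them also compares cell types.

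Azurophil, or primary, granules are the first granules made in the neutrophil lineage. Their proteins are made at the promyelocyte stage, packed into the granule and kept through the later stages, while the messenger RNAs fade as cells mature. Mpo encodes myeloperoxidase, a heme enzyme that makes hypochlorous acid. Elane (neutrophil elastase), Prtn3 (proteinase 3), Ctsg (cathepsin G) and Prss57 (neutrophil serine protease 4) encode serine proteases that are stored active after cathepsin C, encoded by Ctsc, has removed an N-terminal dipeptide. Mast cells also store serine proteases, and cathepsin G is known from both lineages.

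The 5 genes lie at 3 loci of GRCm38. Mpo (ENSMUSG00000009350.13) spans chromosome 11 from 87793581 to 87804413 on the plus strand, and Ctsg (ENSMUSG00000040314.2) spans chromosome 14 from 56099881 to 56102574 on the minus strand, beside genes of mast cell and granule proteases. The other 3 share a stretch of chromosome 10. Prss57 (ENSMUSG00000020323.14) runs from 79781474 to 79790961 on the minus strand, Prtn3 (ENSMUSG00000057729.12) from 79874476 to 79883174 on the plus strand and Elane (ENSMUSG00000020125.7) from 79886247 to 79888215 on the plus strand.

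The bases ahead of the RefSeq starts of Mpo, Elane, Prtn3 and Ctsg, without Prss57, are shown because these genes were high in the same libraries from 3 separate loci. Of the 250 bases before each start in RefSeq (GRCm38.p6), only the stretch outside annotated exons is printed, 5′ to 3′ on the strand of the gene. Capitals mark the letters GAGGAA (the core bound by PU.1), TAACNG or CAACNG (MYB) and TGTGGT (RUNX), each searched on both strands, with matches on the other strand shown as their reverse complement. The Prtn3 stretch lies inside the wider gene span given above, outside its exons. The stretches are chr11:87793534-87793580 (plus strand), chr10:79886062-79886246 (plus strand), chr10:79879417-79879613 (plus strand) and chr14:56102575-56102824 (minus strand).
Mpo: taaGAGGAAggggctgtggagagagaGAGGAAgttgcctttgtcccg
Elane: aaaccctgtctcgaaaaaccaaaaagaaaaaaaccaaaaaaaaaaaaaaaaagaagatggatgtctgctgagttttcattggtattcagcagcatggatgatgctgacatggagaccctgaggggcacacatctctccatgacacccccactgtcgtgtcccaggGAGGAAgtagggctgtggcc
Prtn3: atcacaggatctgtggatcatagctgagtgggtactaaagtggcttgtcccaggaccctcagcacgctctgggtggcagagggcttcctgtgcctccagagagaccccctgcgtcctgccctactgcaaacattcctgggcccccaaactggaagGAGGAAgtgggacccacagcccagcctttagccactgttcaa
Ctsg: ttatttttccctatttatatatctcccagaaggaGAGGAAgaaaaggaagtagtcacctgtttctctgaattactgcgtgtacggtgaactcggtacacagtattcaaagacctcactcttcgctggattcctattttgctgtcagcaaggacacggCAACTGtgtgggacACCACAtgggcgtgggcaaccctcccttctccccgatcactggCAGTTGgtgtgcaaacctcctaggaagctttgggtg

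GAGGAA was found in the windows of 4 of the 4 genes shown, against 23.3% of all 32851 RefSeq windows of 250 bases. It stood on the gene's own strand each time. In Elane it began 85 bases before the start and in Prtn3 95 bases before it, in Ctsg 216 bases before it, and Mpo held it at 247 and at 224 bases before the start. The MYB letters were also in 4 of 4 windows, against 43.1% of all windows, and in Elane, Prtn3 and Mpo they lay in the part of the window that is not printed. The RUNX letters were in Ctsg alone (1 of 4, against 14%). The C/EBP letters TTNNGNAA were in 0 of 4 windows, against 36.8%. The windows of the neighbouring genes Elane and Prtn3 are alike, with CAACGG beginning 51 and 56 bases before the start. The 4 windows may therefore not be independent. All matches describe the letters only, and binding was not measured.

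The tables hold FPKM, fragments per kilobase of transcript relative to all mapped fragments, which allow levels to be compared between genes. Depth was estimated from the smallest steps between low values at 22500000 to 35400000 fragments per library. Nras had 348 to 479 FPKM in NRASG12D, 47.7 to 51.2 FPKM in NUP98-NSD1 and 245 to 701 FPKM in NUP98-NSD1+NRASG12D libraries, so the libraries labelled with NRASG12D were all above those without it. Nup98 had 9.12 to 11.1 FPKM in NRASG12D, 18.2 to 19.0 FPKM in NUP98-NSD1 and 11.9 to 20.2 FPKM in NUP98-NSD1+NRASG12D libraries. Nsd1 overlapped between the groups, at 11.7 to 14.7, 10.8 to 16.2 and 9.98 to 16.2 FPKM. The paper does not state whether the fusion sequence is mouse or human, so neither gene is a firm check of the fusion label. Mast cell markers (12 genes) summed to 30405 to 33119 FPKM in NRASG12D, 27009 to 32090 FPKM in NUP98-NSD1 and 752 to 4397 FPKM in NUP98-NSD1+NRASG12D libraries. Cpa3, a mast cell carboxypeptidase, is listed at 0 in all 3 NRASG12D libraries, where the mast cell chymase Cma1 had 12715 to 16008 FPKM and the tryptase Tpsb2 7712 to 12651 FPKM, and it makes up much of the sum of NUP98-NSD1 cells. Without Cpa3, left out after its values were seen, the 11 other markers summed to 30405 to 33119, 13853 to 17712 and 472 to 2576 FPKM. Late neutrophil markers (12 genes) summed to 3.29 to 7.36, 279 to 604 and 1043 to 4194 FPKM in the same order of groups. Monocyte and macrophage markers (12 genes) summed to 45.0 to 62.3, 570 to 1116 and 2214 to 5537 FPKM. Within their groups NRASG12D replicate 2, NUP98-NSD1 replicate 3 and NUP98-NSD1+NRASG12D replicates 1 and 3 stand apart for azurophil genes, and they are pointed out below where they set a value.

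Mpo was among the most abundant messenger RNAs of the NUP98-NSD1 cultures and did not pass 3.53 FPKM in NRASG12D cultures. It had 2311, 2554 and 463 FPKM in NUP98-NSD1 replicates 1, 2 and 3, a mean of 1776 ± 1144 (SD, n = 3). The NUP98-NSD1+NRASG12D libraries had 5140, 1463 and 131 FPKM, a mean of 2245 ± 2594 (SD, n = 3). In NRASG12D cells it had 0, 3.53 and 0.218 FPKM, which corresponds to an estimated 0, 344 and 13.5 fragments. By rank among the 55274 identifiers Mpo was 10th, 8th and 140th in NUP98-NSD1 and 2nd, 33rd and 921st in NUP98-NSD1+NRASG12D libraries. The fusion libraries were thus all far above the NRASG12D libraries, while they differed among themselves by more than any other of the 5 genes did, and the lowest of them was NUP98-NSD1+NRASG12D replicate 3.

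Elane followed the same division without the low value in that library. It had 1289, 1224 and 175 FPKM in NUP98-NSD1 cells, a mean of 896 ± 625 (SD, n = 3). In NUP98-NSD1+NRASG12D cells the values were 3767, 994 and 1945 FPKM, a mean of 2236 ± 1409 (SD, n = 3). The NRASG12D values were 0, 1.68 and 0.102 FPKM. NUP98-NSD1 replicate 3 was the lowest fusion library, and replicate 3 of NUP98-NSD1+NRASG12D, the lowest for Mpo, was the second highest for Elane.

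Prtn3, whose annotated span begins 11.8 kb before that of Elane, had 891, 783 and 196 FPKM in NUP98-NSD1 cells, a mean of 623 ± 374 (SD, n = 3). It had 2499, 726 and 1212 FPKM in NUP98-NSD1+NRASG12D cells, a mean of 1479 ± 916 (SD, n = 3), and 0.0827, 3.48 and 0.299 FPKM in NRASG12D cells. In both fusion groups the 3 libraries stood in the same order as for Elane, with NUP98-NSD1 replicate 3 again the lowest of the 6. Of the Prtn3 stretches of 50 bases, 6.45% also occur in the overlapping gene Plppr3 on the opposite strand, and strand-specific counting is not given in the sources used here.

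Ctsg was the only one of the 5 genes with a clear level in every NRASG12D library. It had 27, 21.5 and 25.8 FPKM there, from an estimated 652, 764 and 581 fragments, with a coefficient of variation of 11.6% over the 3 libraries. In NUP98-NSD1 cells it had 686, 702 and 373 FPKM, a mean of 587 ± 185 (SD, n = 3). The NUP98-NSD1+NRASG12D libraries had 1048, 438 and 706 FPKM, a mean of 731 ± 306 (SD, n = 3). Unlike the other 4 genes, Ctsg was not highest in NRASG12D replicate 2 within its group.

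Prss57 was the least abundant member. It had 24.8, 25 and 5.62 FPKM in NUP98-NSD1 cells, a mean of 18.5 ± 11.1 (SD, n = 3), and 45.5, 28.3 and 8.67 FPKM in NUP98-NSD1+NRASG12D cells, a mean of 27.5 ± 18.4 (SD, n = 3). In NRASG12D cells replicate 2 had 0.0489 FPKM, an estimated 4.92 fragments, and replicates 1 and 3 were below the level that 3 fragments would give (0.0298 to 0.0469 FPKM). Of the Prss57 stretches of 50 bases, 38.4% also occur in the overlapping gene Fstl3 on the opposite strand, whose mean was 0.438, 0.575 and 0.440 FPKM in the 3 groups. In NUP98-NSD1 cells replicate 3 was the lowest of the group for all 5 genes, and in NUP98-NSD1+NRASG12D cells replicate 1 was the highest for all 5.

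**Figure D1:**
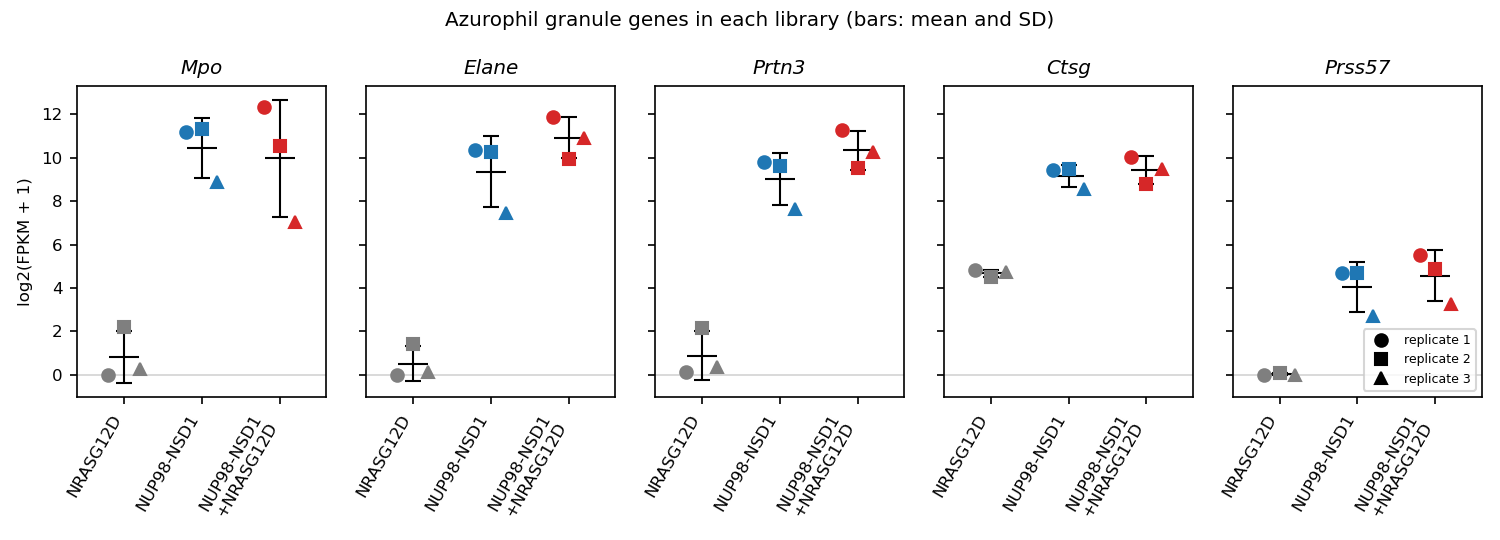
Level of each azurophil granule gene in every library, as log2(FPKM + 1) on the vertical axis, by group on the horizontal axis; points are libraries, numbered by replicate, and bars give the mean ± SD of 3 libraries. The 6 fusion libraries lie above the 3 NRASG12D libraries for all 5 genes, and only Ctsg stands clear of 0 in all 3 NRASG12D libraries.

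Together the 5 genes took 0.204% to 0.840% of the summed FPKM of a NUP98-NSD1 library and 0.593% to 1.85% of a NUP98-NSD1+NRASG12D library. In NRASG12D libraries they took 0.00488% to 0.00536%. NRASG12D replicate 2 carried most of what little Mpo, Elane and Prtn3 was seen in that group, and it also had the highest Lyz2 of the 3, at 71.9 FPKM. In bulk RNA, fewer cells of a type and less RNA per cell cannot be told apart.

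The first question put to these data was how NUP98-NSD1 cells differ from NRASG12D cells. All 5 genes were higher in NUP98-NSD1 cells. The difference in log2(FPKM + 1) was 9.63 for Mpo (SE 0.79, limma adjusted p = 0.000353), 8.83 for Elane (SE 0.79, limma adjusted p = 0.000505) and 8.13 for Prtn3 (SE 0.71, limma adjusted p = 0.000484). These were the 2nd, 3rd and 4th largest rises of the 13493 genes tested. Ctsg rose by 4.46 (SE 0.24, limma adjusted p = 8.11e-05) and Prss57 by 4.02 (SE 0.50, limma adjusted p = 0.00141). Changes are large beside the median over all tested genes in this comparison, which was 0.27. The count of 5 of 5 is to be read against a high background, since 52.1% of tested genes passed the threshold in either direction, 42.2% as higher and 9.98% as lower. The groups did not overlap for 5 of 5 genes, against 50.7% of tested genes whose NUP98-NSD1 libraries were all above. By an exact two-sided permutation test each gene had p = 0.1, the smallest that 3 libraries against 3 can give.

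As ratios of mean FPKM, NUP98-NSD1 cells had 1420 times as much Mpo as NRASG12D cells, 1506 times as much Elane, 485 times as much Prtn3 and 23.7 times as much Ctsg. The first 3 ratios rest on NRASG12D replicate 2 for nearly all of their denominator, and none is given for Prss57, which was under or near the floor. Because of such low values the fitted differences depend on the pseudocount. With 0.1 in place of 1 the difference was 11.49 for Mpo, 10.95 for Elane and 9.66 for Prtn3, 4.51 for Ctsg and 7.07 for Prss57. Without NRASG12D replicate 2 it was 10.31 for Mpo, 9.28 for Elane and 8.77 for Prtn3.

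The second comparison asked how cells with both oncogenes differ from cells with NRASG12D alone, which both carry the NRASG12D vector. All 5 genes were again higher. Elane rose by 10.40 in log2(FPKM + 1) (SE 0.56, limma adjusted p = 6.19e-05), Prtn3 by 9.46 (SE 0.64, limma adjusted p = 0.000133) and Mpo by 9.14 (SE 1.29, limma adjusted p = 0.00197). They ranked 2nd, 7th and 10th among the rises. Ctsg rose by 4.74 (SE 0.31, limma adjusted p = 0.000124) and Prss57 by 4.54 (SE 0.53, limma adjusted p = 0.000932). The median over all tested genes was 0.23, 38.3% of tested genes were called in either direction, 24.2% as higher and 14.1% as lower. The groups did not overlap for any of the 5 genes, against 38.7% of tested genes whose NUP98-NSD1+NRASG12D libraries were all above. This comparison shares its NRASG12D libraries with the first one, so the pair is not independent. In ratios of means Mpo was 1795 times, Elane 3757 times, Prtn3 1150 times and Ctsg 29.5 times the NRASG12D level. The first 3 again rest on NRASG12D replicate 2 for nearly all of the denominator, and the Mpo mean rests largely on NUP98-NSD1+NRASG12D replicate 1, at 5140 FPKM.

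Cell type markers moved with these differences. Against NRASG12D cells, 42.2% of all tested genes were called higher and 9.98% lower in NUP98-NSD1 cells. In NUP98-NSD1+NRASG12D cells these shares were 24.2% and 14.1%. Of the 12 mast cell markers, 3 were called higher in NUP98-NSD1 cells and 6 lower, and NUP98-NSD1+NRASG12D cells had 2 higher and 10 lower. Cpa3 is among those higher in both, but its 0 in NRASG12D cells may be a failed estimate, and without it 2 and 1 of 11 markers were higher. All 12 markers were at 1 FPKM or more in each NUP98-NSD1 library, so the azurophil genes were high there beside mast cell markers that, without Cpa3, summed to 13853 to 17712 FPKM. Of the 12 late neutrophil markers, 10 were called higher in each fusion group than in NRASG12D cells and none lower. Of the 12 monocyte and macrophage markers, 11 were called higher in NUP98-NSD1 and 12 in NUP98-NSD1+NRASG12D cells, and none lower. Of 8 markers of the granulocyte-monocyte progenitor, the stage before the promyelocyte, 7 were higher in NUP98-NSD1 cells, while NUP98-NSD1+NRASG12D cells had 4 of them higher and 1 lower. Their part in the differences of the azurophil genes was not tested.

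**Figure D2:**
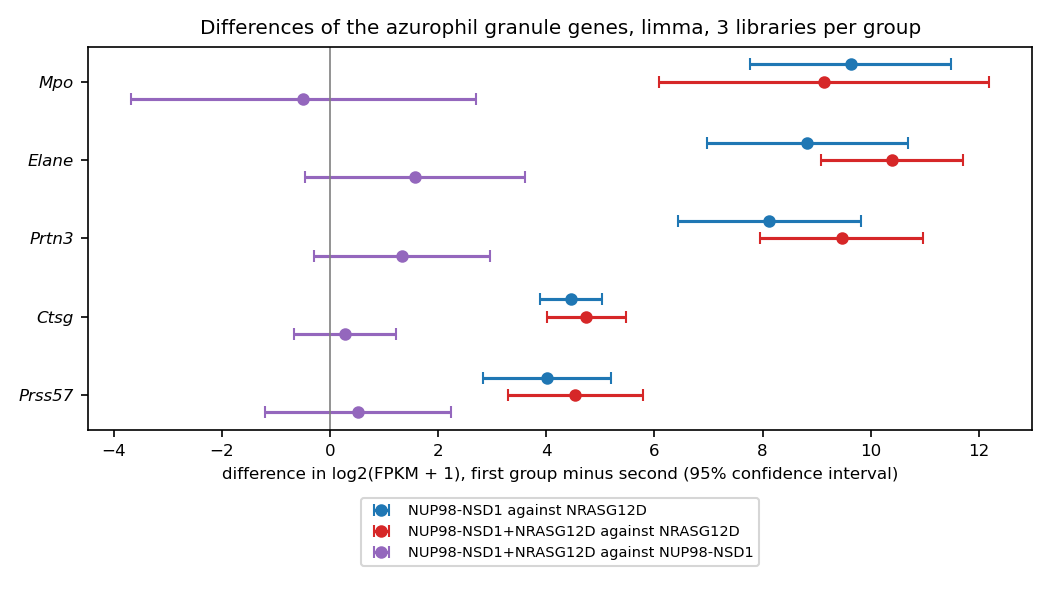
Difference in log2(FPKM + 1) between groups (horizontal axis) for each azurophil granule gene in the 3 comparisons; points are limma estimates over 3 against 3 libraries and bars are 95% confidence intervals. All 10 intervals against NRASG12D lie above 0, while all 5 intervals of NUP98-NSD1+NRASG12D against NUP98-NSD1 include 0.

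The third comparison asked what NRASG12D adds to NUP98-NSD1. For the azurophil genes no difference passed the threshold, and the intervals were wide. Mpo had a difference of -0.49 in log2(FPKM + 1) with a 95% interval from -3.67 to 2.7 (limma adjusted p = 0.896). Elane had 1.57, from -0.47 to 3.61 (limma adjusted p = 0.335), and Prtn3 had 1.33, from -0.30 to 2.96 (limma adjusted p = 0.301). Ctsg had 0.28, from -0.66 to 1.23 (limma adjusted p = 0.768), and Prss57 had 0.52, from -1.20 to 2.25 (limma adjusted p = 0.763). At an unadjusted p under 0.05, 0 of 5 genes passed, against 24.6% of all tested genes, and 8.61% of all tested genes passed after adjustment. The groups overlapped for all 5 genes, while 31.4% of tested genes had groups that did not overlap. The intervals are too wide to show that the groups were alike. The sign of the Mpo difference rests on a single library, because without NUP98-NSD1+NRASG12D replicate 3 it was 0.97, while without NUP98-NSD1+NRASG12D replicate 1 it was -1.67 and without NUP98-NSD1 replicate 3 it was -1.28. Without NUP98-NSD1 replicate 3 the difference of Elane was 0.63 and that of Prtn3 0.64. Late neutrophil markers differed between the same groups, with 4 of 12 higher and none lower, and so did monocyte and macrophage markers, with 5 of 12 higher and none lower. Mast cell markers had none of 12 higher and 9 lower, where 2.30% of all tested genes were called higher and 6.31% lower. These counts rest on single libraries. Over the 6 fits that leave out a library, the late neutrophil count ranged from 0 (without NUP98-NSD1 replicate 3) to 11 (without NUP98-NSD1+NRASG12D replicate 1), the monocyte and macrophage count from 0 to 10 and the lower mast cell count from 3 to 11. Their part in the azurophil values was not tested.

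Within a library, the ratio of one azurophil gene to another does not depend on how the library was scaled. The ratios were examined after the values had been seen, over all 10 pairs of genes. Elane over Prtn3 was the steadiest pair, at 1.45, 1.56 and 0.892 in NUP98-NSD1 and 1.51, 1.37 and 1.61 in NUP98-NSD1+NRASG12D libraries, a range of 1.80-fold over the 6. Mpo over Elane was 1.79, 2.09 and 2.65 in NUP98-NSD1 libraries and 1.36, 1.47 and 0.0673 in NUP98-NSD1+NRASG12D libraries, a range of 39.3-fold. The groups did not overlap for this ratio, yet nearly the whole range came from NUP98-NSD1+NRASG12D replicate 3. Mpo over Prtn3 behaved alike, at 2.6, 3.26 and 2.36 against 2.06, 2.02 and 0.108. Elane over Ctsg was 1.88, 1.74 and 0.468 in NUP98-NSD1 and 3.59, 2.27 and 2.76 in NUP98-NSD1+NRASG12D libraries. Prtn3 over Ctsg was 1.30, 1.12 and 0.525 against 2.38, 1.66 and 1.72. These were the 4 of 10 pairs whose groups did not overlap. Each had an exact permutation p of 0.1, the smallest possible, and an adjusted p of 0.25 over the 10 pairs. They are not independent, since Elane and Prtn3 had a Pearson's r of 0.994 over the 6 fusion libraries. No share over other pairs of genes was computed to set beside this count.

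NUP98-NSD1+NRASG12D replicate 3 therefore held Elane, Prtn3 and Ctsg at levels within the range of the other fusion libraries and Mpo below all of them. Prss57 was also the lowest of its group there, at 8.67 FPKM, though above the 5.62 FPKM of NUP98-NSD1 replicate 3. Over the 6 fusion libraries, Pearson's r of log2(FPKM + 1) with Mpo was 0.874 for Prss57. It was 0.357 for Elane, 0.380 for Prtn3 and 0.422 for Ctsg. Mpo made up 3.27% of the summed FPKM of the 5 genes there, against 38.2% to 48.3% in NUP98-NSD1 libraries and up to 41.1% in the other libraries of its group. The same library had 701 FPKM of Nras, the highest of the 9. It also had 2216 FPKM of Ngp, a gene of secondary granules, which form after the azurophil granules, and 4740 FPKM of the secreted protease inhibitor Slpi. It had 9.53 FPKM of the progenitor gene Cd34, which is 1 of the 8 granulocyte-monocyte progenitor markers. Together these 8 summed to 1503 FPKM there, against 2161 and 1718 FPKM in replicates 1 and 2 of its group. In NUP98-NSD1 libraries they summed to 1272 to 1708 FPKM and in NRASG12D libraries to 767 to 859 FPKM. The sum in NUP98-NSD1+NRASG12D replicate 3 was the lowest of its group and within the range of NUP98-NSD1 libraries. The part of these values in its low Mpo was not tested.

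**Figure D3:**
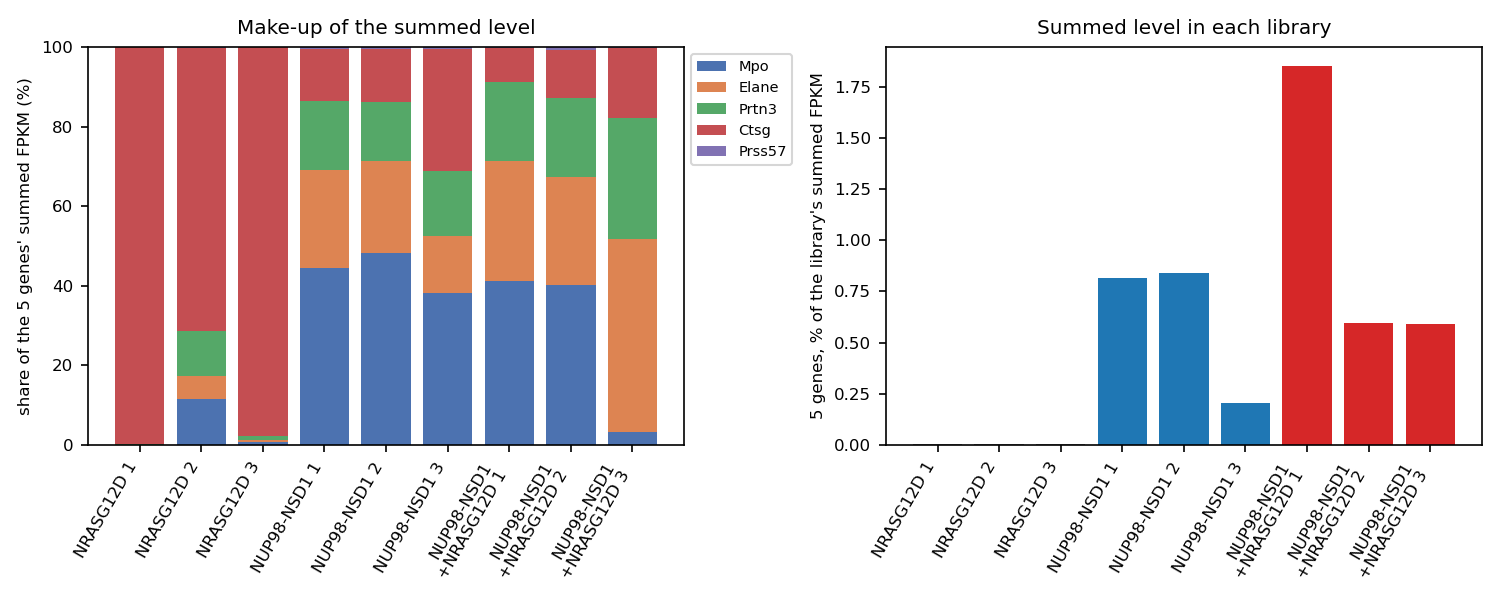
Left, share of each azurophil granule gene in the summed FPKM of the 5 genes (percent, stacked bars, by library); right, summed FPKM of the 5 genes as a percent of all FPKM of the library. NRASG12D libraries are almost all Ctsg at a total of 0.00488% to 0.00536%, and NUP98-NSD1+NRASG12D replicate 3 has an Mpo share of 3.27%.

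The genes that activate and store the azurophil proteases did not move together. Ctsc, whose product activates all 4 proteases, had 220, 211 and 239 FPKM in NRASG12D, 556, 451 and 457 FPKM in NUP98-NSD1 and 699, 538 and 559 FPKM in NUP98-NSD1+NRASG12D libraries. It was already high in NRASG12D cells, and rose by 1.12 and 1.41 in log2(FPKM + 1) in the fusion groups (limma adjusted p = 0.000651 and 0.00119). Srgn, which encodes the proteoglycan core serglycin that holds proteases in granules of both lineages, was lower in NUP98-NSD1+NRASG12D cells by -1.78 (limma adjusted p = 0.000974). In NUP98-NSD1 cells its difference was -0.42 (limma adjusted p = 0.0134), a call that was lost without NUP98-NSD1 replicate 1 or 2 or NRASG12D replicate 1 and under quantile normalization. Cst7, encoding cystatin F, an inhibitor of cathepsin C, had -0.25 in NUP98-NSD1 cells (limma adjusted p = 0.0907) and fell by 1.43 in NUP98-NSD1+NRASG12D cells (limma adjusted p = 0.00268). Between the fusion groups Ctsc had 0.29 (limma adjusted p = 0.47), Srgn -1.36 and Cst7 -1.18 (limma adjusted p = 0.0173 and 0.0296), and the last 2 calls were lost without any 1 of the NUP98-NSD1 libraries or NUP98-NSD1+NRASG12D replicate 3, that of Cst7 also without NUP98-NSD1+NRASG12D replicate 2.

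Inhibitors of the neutrophil serine proteases divided in the same way against NRASG12D cells, with 1 of 6 tested genes higher and 3 lower in each fusion group. Of all tested genes, 42.2% were higher and 9.98% lower in NUP98-NSD1, and 24.2% and 14.1% in NUP98-NSD1+NRASG12D cells. The inhibitor gene that rose was Slpi, by 6.02 in NUP98-NSD1 and 9.28 in NUP98-NSD1+NRASG12D cells (limma adjusted p = 0.000484 and 0.000576). The intracellular serpin gene Serpinb1a, at 1538 to 1596 FPKM in NRASG12D cells, had 810 to 1188 FPKM in NUP98-NSD1 and 274 to 327 FPKM in NUP98-NSD1+NRASG12D cells. Its differences were -0.73 and -2.36 (limma adjusted p = 0.00707 and 0.000171). Serpinb6a fell as well, with differences of -1.46 and -2.39 (limma adjusted p = 0.0037 and 0.00792), and so did Serpinb1b, with -0.63 and -1.24 (limma adjusted p = 0.0067 and 0.00189). Serpinb1a, too, was lower in NUP98-NSD1+NRASG12D than in NUP98-NSD1 cells, by -1.63 (limma adjusted p = 0.0103, not called without NUP98-NSD1 replicate 2).

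Mpo needs heme and passes through chaperones of the endoplasmic reticulum before it is cleaved. Of 13 genes for these steps, NUP98-NSD1 cells had 7 higher and 1 lower than NRASG12D cells did, against 42.2% and 9.98% of all tested genes. The median difference was 0.37 beside 0.27 for all tested genes. Under median-ratio scaling the counts of the 13 were 4 and 2. Alas1, the rate-limiting enzyme of heme synthesis outside red cells, stood out. It had 13.1, 12.8 and 14.3 FPKM in NRASG12D, 258, 263 and 90.4 FPKM in NUP98-NSD1 and 511, 522 and 860 FPKM in NUP98-NSD1+NRASG12D libraries. Alas1 rose by 3.68 and 5.41 (limma adjusted p = 0.000878 and 3.37e-05). Cpox, a further enzyme of the pathway, rose by 1.03 in NUP98-NSD1 cells (limma adjusted p = 0.00215). Furin, a proprotein convertase, was the gene that fell, with -1.09 in NUP98-NSD1 and -2.69 in NUP98-NSD1+NRASG12D cells (limma adjusted p = 0.00473 and 0.023). In the latter comparison 3 of 13 were higher and 1 lower, against 24.2% and 14.1% of all tested genes. Among those higher were Hspa5, the chaperone BiP, with 0.88, and Fech, which inserts iron into heme, with 0.72 (limma adjusted p = 0.0137 and 0.00666). The calls of Furin and Hspa5 there were lost without any 1 of the NRASG12D libraries. Between the fusion groups 0 of 13 were called by limma, against 8.61% of all tested genes.

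The genes of other azurophil granule and lysosome proteins moved in both directions. Against NRASG12D cells, 7 of 18 tested genes were called higher in NUP98-NSD1 cells and 7 lower, where 42.2% of all tested genes were higher and 9.98% lower, and the median difference of 0.024 is below the 0.27 of all tested genes. Under median-ratio scaling or quantile normalization 4 were higher and 9 lower. The lysozyme genes Lyz2 and Lyz1 rose most, by 5.87 and 4.01 (limma adjusted p = 0.00246 and 0.000152), followed by Arsb, arylsulfatase B, by 2.11 (limma adjusted p = 0.00129). Among those that fell were Cd63, a granule membrane tetraspanin, with -0.74, and Ctsd, cathepsin D, with -0.67 (limma adjusted p = 0.00588 and 0.00241). In NUP98-NSD1+NRASG12D against NRASG12D cells 8 were higher and 3 lower, with a median of 0.27 beside 0.23 for all tested genes and 24.2% of those called higher, led by Lyz2 with 8.26, Lyz1 with 6.36 and Arsb with 3.12 (limma adjusted p = 0.000939, 0.000151 and 5.45e-05) and, on the lower side, Cd63 with -2.39 and Glb1 with -1.16 (limma adjusted p = 0.00197 and 0.0105). Lyz1 and Lyz2 are near-identical copies, so reads may be split between them. Between the fusion groups 3 were higher and 1 lower, against 2.30% and 6.31% of all tested genes. Of the 18 listed genes, 0 were called without NUP98-NSD1 replicate 1, 2 or 3 or without NUP98-NSD1+NRASG12D replicate 3. Lyz2 (2.39), Lyz1 (2.34) and Lamp1 (1.07) were those higher and Cd63 (-1.65) the one lower.

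Genes of granule sorting and release were mostly not called, with 3 of 11 higher and 1 lower in NUP98-NSD1 and 2 higher and 1 lower in NUP98-NSD1+NRASG12D against NRASG12D cells. Of all tested genes, 42.2% were higher and 9.98% lower in the first of these comparisons, and 24.2% and 14.1% in the second. Rab27a, a GTPase of azurophil granule docking, rose by 1.22 and 1.65 (limma adjusted p = 0.00159 and 0.00195). Under quantile normalization 1 of 11 was higher and 7 lower in NUP98-NSD1 cells. Jagn1 had 0.62, Hax1 0.42 and Ap3b1 -0.30 in that comparison (limma adjusted p = 0.0106, 0.0225 and 0.0221), and the calls of Hax1 and Ap3b1 were lost without NUP98-NSD1 replicate 1 or 2 or NRASG12D replicate 2 or 3. Hax1 was not called under any of the 3 scalings, nor Jagn1 under median-ratio scaling or quantile normalization. In NUP98-NSD1+NRASG12D cells Hax1 had 0.80 and Unc13d -1.02 against NRASG12D (limma adjusted p = 0.0263 and 0.00181), where the call of Hax1 was lost without any 1 of the NRASG12D libraries or NUP98-NSD1+NRASG12D replicate 3, with FPKM rescaled to an equal sum and under quantile normalization. The fusion groups differed in Lyst, with 1.59, and Unc13d, with -0.81 (limma adjusted p = 0.0251 and 0.0213), calls that were lost without any 1 of the NUP98-NSD1 libraries or NUP98-NSD1+NRASG12D replicate 3, and that of Lyst also without NUP98-NSD1+NRASG12D replicate 2.

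Most of the listed transcription factors that bind azurophil gene promoters in promyelocytes were called higher in the fusion groups. Of 9 tested, NUP98-NSD1 cells had 7 higher and 0 lower than NRASG12D cells did, where 42.2% of all tested genes were called higher, and the median difference was 0.94. Among these calls, those of Cebpb and Gfi1 were lost under quantile normalization. That of Gfi1 was also lost without any 1 library except NUP98-NSD1 replicate 3. In NUP98-NSD1+NRASG12D against NRASG12D cells 6 were higher and 1 lower, against 24.2% and 14.1% of all tested genes, with a median of 1.64. Cebpe, the C/EBP factor of late promyelocytes and secondary granules, had 0, 0.272 and 0 FPKM in NRASG12D, 82.7, 64.0 and 15.8 FPKM in NUP98-NSD1 and 133, 94.8 and 136 FPKM in NUP98-NSD1+NRASG12D libraries. It rose by 5.38 and 6.80 (limma adjusted p = 0.000825 and 1.35e-05). Cebpd rose by 2.50 and 3.67 (limma adjusted p = 0.00126 and 6.19e-05) and Cebpa, needed to form granulocyte progenitors, by 2.2 and 2.77 (limma adjusted p = 0.00513 and 0.000468). The C/EBP genes were at or near 0 in NRASG12D cells, whereas Spi1, which encodes PU.1 and is used by mast cells too, had 72.6 to 81.3 FPKM there, 108 to 192 FPKM in NUP98-NSD1 and 235 to 274 FPKM in NUP98-NSD1+NRASG12D libraries. Myb, which encodes a progenitor factor that acts on Mpo and Elane, had 16 to 24.9, 39.4 to 62.1 and 20.8 to 60.4 FPKM. Runx1, another factor of these promoters, was lower in NUP98-NSD1+NRASG12D cells than in NRASG12D cells, by -1.08, and than in NUP98-NSD1 cells, by -1.23 (limma adjusted p = 0.0174 and 0.0347), calls that were lost without any 1 of the 3 libraries compared against, and the second also without NUP98-NSD1+NRASG12D replicate 2. Cebpb, the C/EBP gene of macrophages and stress granulopoiesis, was the 1 factor higher in NUP98-NSD1+NRASG12D than in NUP98-NSD1 cells, by 1.04 (limma adjusted p = 0.0211), which was lost without any 1 of the NUP98-NSD1 libraries or NUP98-NSD1+NRASG12D replicate 3.

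**Figure D4:**
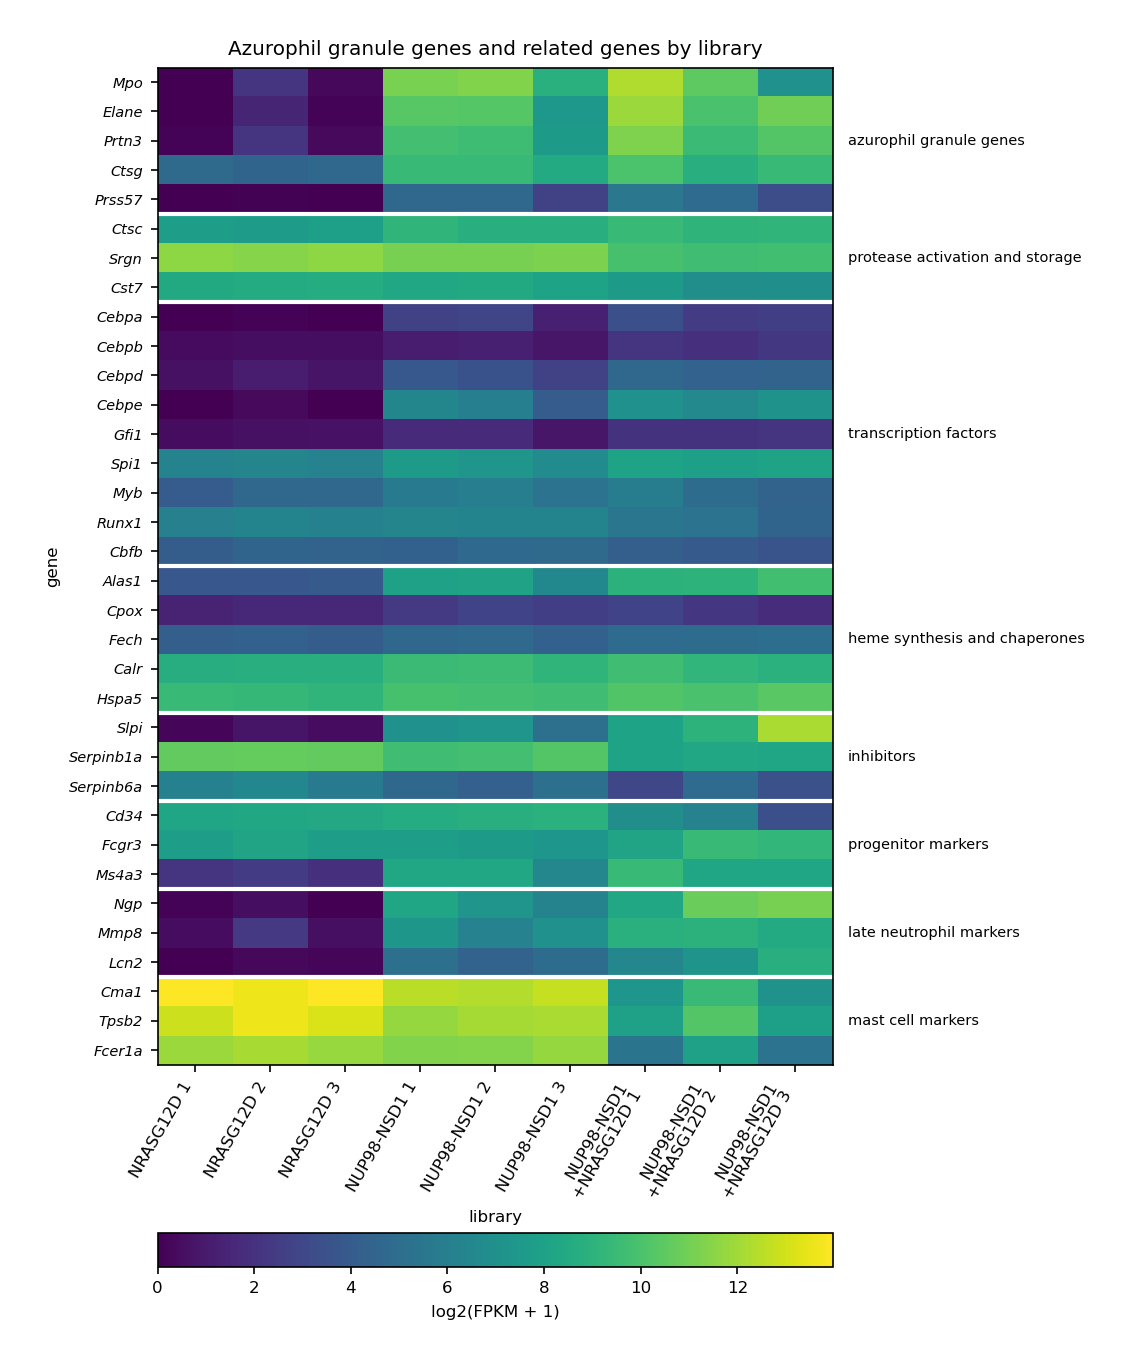
Level of the azurophil granule genes and of related genes as log2(FPKM + 1) (colour, from dark for 0 to yellow for the highest) in the 9 libraries (columns), in rows grouped as granule genes, protease activation and storage, transcription factors, heme synthesis and chaperones, inhibitors, progenitor, late neutrophil and mast cell genes. The rows of Mpo, Elane, Prtn3, Cebpe and Slpi are darker in the 3 NRASG12D libraries than in the 6 fusion libraries. Cebpe and Slpi are still rather dark in NUP98-NSD1 replicate 3, while Ctsc, Srgn and Spi1 have colour in all 9.

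Mast cells and basophils store serine proteases of the same family, and the fusion groups differed in these. Of 8 tested peroxidases and granule serine proteases, NUP98-NSD1 cells had 6 higher and 2 lower than NRASG12D cells did, against 42.2% and 9.98% of all tested genes. Of the same 8, NUP98-NSD1+NRASG12D cells had 1 higher and 4 lower than NRASG12D cells, against 24.2% and 14.1% of all tested genes. They had 5 lower than NUP98-NSD1 cells, against 6.31% of all tested genes. The basophil proteases Prss34 and Mcpt8 rose by 6.07 and 4.37 in NUP98-NSD1 cells (limma adjusted p = 0.00145 and 0.000725). Mcpt4, a mast cell chymase, had 33.2 to 101 FPKM in NRASG12D, 415 to 491 FPKM in NUP98-NSD1 and 5.25 to 34.1 FPKM in NUP98-NSD1+NRASG12D libraries. It rose by 2.68 in NUP98-NSD1 cells (limma adjusted p = 0.00216), and its difference between the fusion groups was -5.16 (limma adjusted p = 0.00772). Cma1 fell in both fusion groups, by 1.31 and 5.86 (limma adjusted p = 0.0014 and 0.000535), and Gzmb, granzyme B, by 0.66 and 5.51 (limma adjusted p = 0.00767 and 0.00433). Prss34 with 4.36 was the 1 gene higher and Mcpt4 with -2.48 was among those lower in NUP98-NSD1+NRASG12D against NRASG12D cells (limma adjusted p = 0.0205 and 0.0313), though both calls were lost without NUP98-NSD1+NRASG12D replicate 1 or NRASG12D replicate 1 or 3, that of Prss34 also without NRASG12D replicate 2 or NUP98-NSD1+NRASG12D replicate 2 and that of Mcpt4 without NUP98-NSD1+NRASG12D replicate 3. Against NUP98-NSD1 cells, Gzmb had -4.85 and Cma1 -4.55 in NUP98-NSD1+NRASG12D cells (limma adjusted p = 0.0281 and 0.00942), and the call of Gzmb was lost without any 1 of the NUP98-NSD1 libraries or NUP98-NSD1+NRASG12D replicate 3. Mcpt genes are close copies of each other, so reads may be split between them.

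The neighbours of the members were read as well, as the tested protein-coding genes whose span begins within 100 kb of a member's. Distances here are between the lower coordinates of the spans, whatever the strand. Among 21 such genes, 18 were called higher and 0 lower in NUP98-NSD1 cells against NRASG12D, where 42.2% and 9.98% of all tested genes were. The median difference was 0.72 beside 0.27 for all tested genes. The first count was 14 under scaling to an equal sum, 12 under median-ratio scaling and 11 under quantile normalization. Under the same scalings 4372, 3231 and 2619 of all 13493 tested genes were called higher. For NUP98-NSD1+NRASG12D against NRASG12D the neighbour counts were 7 and 2, beside shares of 24.2% and 14.1% of all tested genes. On chromosome 10, Plppr3 spans 79860475 to 79874634 on the other strand. It overlaps only the edge of the Prtn3 span, which begins at 79874476. The mean of Plppr3 rose from 1.07 FPKM to 36.7 and 66.9 FPKM, by 4.00 and 4.90 in log2(FPKM + 1) (limma adjusted p = 0.001 and 0.000184). Reads of Prtn3 and Plppr3 cannot be told apart where they overlap. Palm, which encodes paralemmin, spans 79793572 to 79820896, just above 79790961, where the minus-strand gene Prss57 starts. Palm overlaps none of the 5 genes and had a mean of 1.34, 16.5 and 22.3 FPKM. It rose by 2.85 and 3.26 (limma adjusted p = 0.000562 and 0.0003). Arid3a, 40.8 kb from Elane, rose by 1.15 and 1.95, and the other 10 neighbours on this stretch had differences between 0.05 and 0.82 in the first comparison. Near Ctsg, Mcpt1, Mcpt2, Mcpt4 and Mcpt8 were 4 of 4 higher in NUP98-NSD1 cells, and the first 3 were lower in NUP98-NSD1+NRASG12D than in NUP98-NSD1 cells, by -3.96, -4.04 and -5.16, where Ctsg had 0.28. Near Mpo, the eosinophil peroxidase gene Epx was at or near 0 in NRASG12D cells and had 0.242 to 1.51 FPKM in NUP98-NSD1 libraries. The NUP98-NSD1+NRASG12D libraries had 2.26, 12.4 and 0.0329 FPKM of Epx. Its call as higher in NUP98-NSD1 cells held under 6 of 14 alternatives and was lost without any 1 library except NUP98-NSD1 replicate 3.

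**Figure D5:**
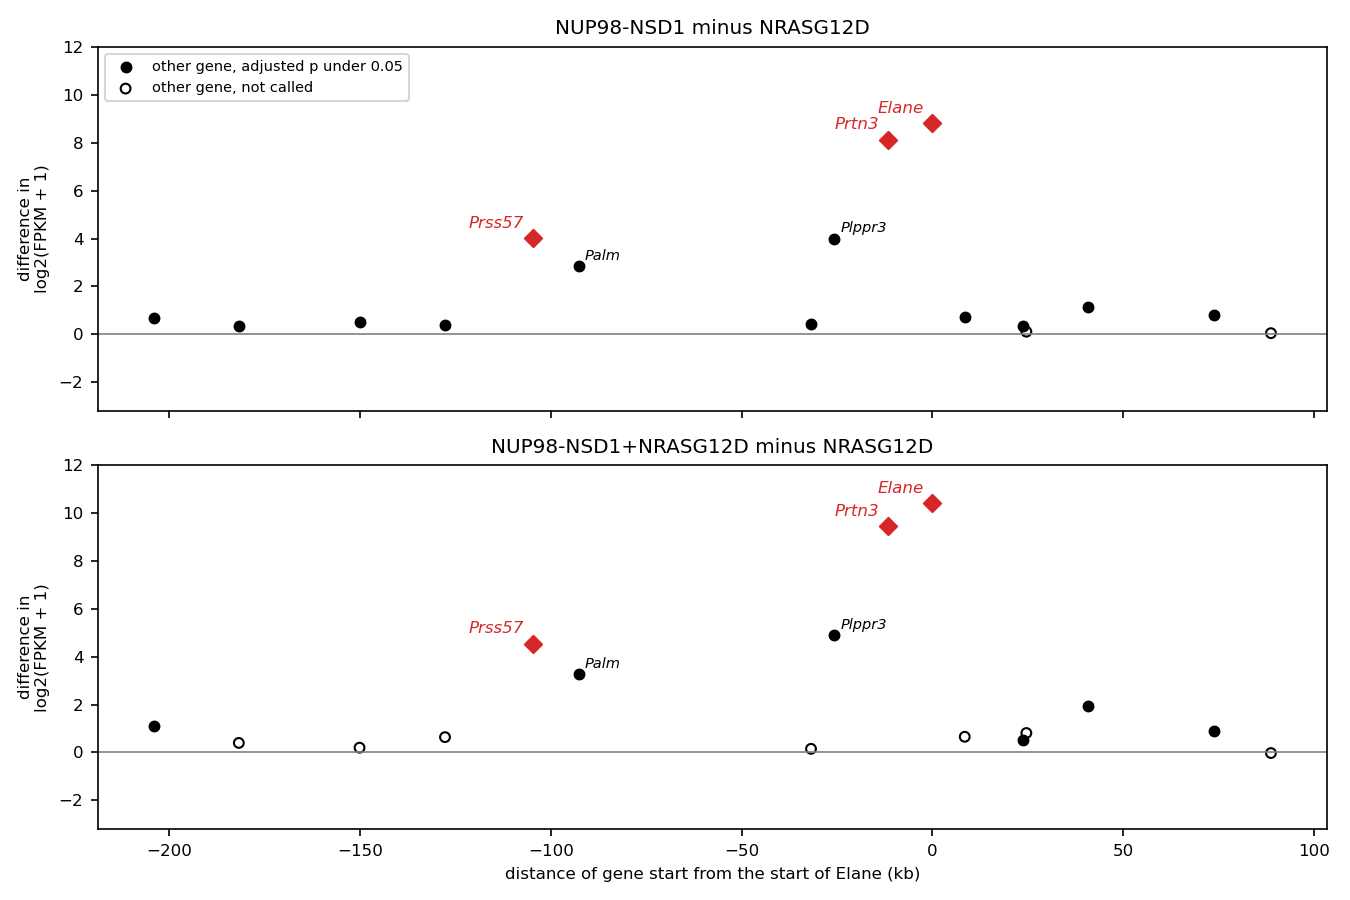
Difference in log2(FPKM + 1) (vertical axis) of tested genes around Elane, by distance in kb between the lower coordinates of their span and of Elane (horizontal axis). NRASG12D cells are the reference of NUP98-NSD1 cells in one panel and of NUP98-NSD1+NRASG12D cells in the other. Prss57, Prtn3 and Elane (red) and the neighbours Plppr3 and Palm stand above the other genes of the stretch.

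The genes whose pattern over the 9 libraries was most like the mean of the 5 members, by Pearson's r of log2(FPKM + 1), were Ms4a3 (0.996), a gene of granulocyte-monocyte progenitors, Palm (0.996), Rasgrp2 (0.995), Lpar5 (0.994) and Sgk3 (0.994). Since the 9 libraries fall into a low and a high cluster, such values mostly describe that division, and the r over the 6 fusion libraries was 0.953 for Ms4a3, 0.946 for Palm, 0.947 for Rasgrp2, 0.954 for Lpar5 and 0.935 for Sgk3. The nearest to Mpo were H2-DMa (0.994), Pdlim1 (0.990) and BC035044 (0.985). Ms4a3 and Rasgrp2 were among the nearest to Elane, and Pak1 (0.996) and Cggbp1 (0.995) among the nearest to Prtn3. Ctsg was closest to Hoxa7 (0.993), Fam234b (0.992) and Sgk3 (0.992), which had 0.850, 0.835 and 0.820 over the 6 fusion libraries, and Prss57 to Paox (0.994), Pdlim1 (0.993) and Gm19680 (0.992). All of these points share their library and its depth.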

How the data were processed

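RNA of 9 transduced bone marrow cultures was sequenced as paired reads of 50 bp. The authors deposited FPKM in 1 Cufflinks gene table per library. The submitters' processing notes name STAR 2.7.2a, Cufflinks 2.2.1 and GRCm38.p6, and the methods GENCODE M22. Strand-specific counting and the handling of reads with several alignments are not given in the sources used here. The methods name DESeq2 on counts, which was not run on FPKM.

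Groups were taken from the sample labels. Values of the same identifier were summed (55330 lines, 55274 identifiers). Of the identifiers, 54867 had equal coordinates in GENCODE M21, used for annotation. FPKM hold no counts, so depth was estimated from the steps between low values of 3386 long genes with 1 transcript, of which 84.3% to 87.4% fell within 0.15 of a whole step. On simulated counts the estimate erred by at most 0.225%. The floor of 3 fragments covers counting error only. A gene was tested if 3 or more of the 9 libraries had an FPKM of 1 or more (13493 genes), as log2(FPKM + 1), which understates changes of low genes. For each pair of groups limma 3.58.1 (R 4.3.3, lmFit, eBayes with trend, no block) was run on its 6 libraries. P-values were adjusted after Benjamini and Hochberg across the tested genes and compared with 0.05. The code was tested on simulated data. Exact permutation tests of single values were two-sided. Python 3.11.15, numpy 2.4.6, pandas 2.3.3, scipy 1.17.1 and matplotlib 3.10.9 were used.

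The members, gene lists and tests were chosen with earlier results of these data known. Named were the 5 members, in each list and comparison up to 3 largest rises and falls past the threshold (all genes of lists under 5), up to 3 markers per cell type by mean FPKM, the most alike genes, and neighbours. Other genes were named after their values were seen. Some genes that this rule names are not reported here. Alternatives covered the pseudocount, the filter, the scaling, the model and leaving out each library. No sequencing batch is named. The replicate numbers come from the labels, which do not say that a number marks a pair.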

Additional observations from a re-analysis of the deposited data

How the results depend on the processing

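All 5 azurophil genes were called higher in each comparison with NRASG12D, and none between the fusion groups, under 9 of 9 alternatives and 6 of 6 fits without a library. Of 225 refitted differences of single members, 219 kept their direction and side of the threshold, and 6 changed sign, all between NUP98-NSD1+NRASG12D and NUP98-NSD1 and none of them called. Without single libraries Mpo ranged from -1.67 to 0.97 (the latter without NUP98-NSD1+NRASG12D replicate 3). Ctsg ranged from -0.021 to 0.61, below 0 without NUP98-NSD1+NRASG12D replicate 1 and, at -0.015, without NUP98-NSD1 replicate 3, and Prss57 from -0.13 (without NUP98-NSD1 replicate 3) to 1.17. Elane ranged from 0.63 to 2.06 and Prtn3 from 0.64 to 1.75, both lowest without NUP98-NSD1 replicate 3. With array weights Mpo was -2.72 (limma adjusted p = 0.0864), Elane 0.73, Prtn3 0.66, Ctsg -0.0071 and Prss57 -0.69. The counts over all genes moved more. NUP98-NSD1 against NRASG12D gave 7036 genes, and 3065 with all 9 libraries in 1 fit. NUP98-NSD1+NRASG12D against NRASG12D gave 5173, and 2941 to 6327 without single libraries. The fusion groups differed in 1162 genes, in 169 without a filter on low values, in 2251 with all 9 libraries in 1 fit, in 3500 with array weights and in 283 to 2509 without single libraries. The share of calls that were higher went from 80.9% to 67.5% with FPKM rescaled to an equal sum, 52.3% with median-ratio scaling and 43.2% with quantile normalization in the first comparison. It went from 63.1% to 47.8%, 53.1% and 41.3% in the second. In the third it went from 26.8% to 12.4% without a filter, to 36.7% with quantile normalization, to 37.3% with all 9 libraries in 1 fit and to between 8.94% and 34.9% without single libraries, lowest without NUP98-NSD1 replicate 2. The cause was not tested. Libraries with the same replicate number did not deviate together (mean correlation -0.0277, 0.0160 and 0.00211), so pairing was not used, and with a replicate block 6864, 4531 and 801 genes were called, with the same calls for the 5 members. The depth limits Prss57 in NRASG12D cells, where 2 of 3 libraries were below the floor and the other had an estimated 4.92 fragments.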

Other observations

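Marker genes of other lineages had different summed levels in the cultures, and some of them, such as the basophil marker Cd200r3, are also mast cell markers. The 6 basophil markers summed to 437 to 478 FPKM in NRASG12D, 893 to 1641 FPKM in NUP98-NSD1 and 29.8 to 494 FPKM in NUP98-NSD1+NRASG12D libraries, so the sums of the fusion groups did not overlap. The 8 eosinophil markers summed to 2.08 to 2.78 FPKM in NRASG12D and 11.1 to 41.9 FPKM in NUP98-NSD1 libraries. In NUP98-NSD1+NRASG12D libraries they summed to 47.8, 231 and 6.11 FPKM, where replicate 2 had 196 FPKM of Prg2, a major eosinophil granule protein. That library also held 1248 FPKM over the 6 megakaryocyte markers, most of it Pf4 (platelet factor 4), against 82.0 and 130 FPKM in the other libraries of its group. The 8 erythroid markers summed to 4.84 to 9.64, 48.0 to 110 and 6.37 to 68.2 FPKM in the 3 groups, and the 8 lymphoid markers did not pass 9.34 FPKM in any library. Prg2 and Pf4 were named after their values were seen, and sums over markers were not tested.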
